A study of Mus musculus with 2 samples.

Results

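The subunits of the mitochondrial respiratory chain and ATP synthase were examined in livers of Yap+/- and Yap+/+ mice. They were found by name as the nuclear genes whose symbol starts with Ndufa, Ndufb, Ndufc, Ndufs, Ndufv, Uqcr, Cox4, Cox5, Cox6, Cox7, Cox8 or Atp5, together with Sdha, Sdhb, Sdhc and Sdhd. Of 18193 genes named by a probe set with exactly 1 gene symbol, 90 met this rule, and they were read by 179 of 45101 probe sets. They comprised 82 subunits and paralogues and the 8 genes Ndufaf1 to Ndufaf8, which share the prefix but encode assembly factors of complex I. Livers were collected on postnatal day 30 from untreated mice that were heterozygous for Yap (Yap+/-) or wild type (Yap+/+), both on a C57BL/6 background. The livers of 5 mice per genotype were pooled, and each pool was hybridised to 1 expression array, so every value is a single measurement and no difference between genotypes could be tested. How the Yap allele was disrupted, and the sex of the mice, the labels do not say.

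The respiratory chain sits in the inner mitochondrial membrane. Complex I oxidises NADH and complex II oxidises succinate, both passing electrons to ubiquinone. Complex III carries them on to cytochrome c, and complex IV hands them to oxygen. Complexes I, III and IV pump protons, and ATP synthase, called complex V, uses the proton gradient to make ATP. The liver relies on this system for gluconeogenesis, urea synthesis and fatty acid oxidation. Several subunits of complex IV exist as isoforms from separate genes, with liver, muscle, lung or testis types, and YAP, a transcriptional co-activator of the Hippo pathway, is best known in this organ for its part in growth and bile duct formation.

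Values are the authors' log2 probe set values. A gene was represented by its brightest probe set, by the mean of the 2 arrays, and genes with a mean of at least 6 were called measured, which held for 9299 genes and for 76 of the 82 subunits and paralogues. Levels of different probe sets depend on their probes and are not compared between genes. Yap1 itself read 9.24 in Yap+/- and 9.40 in Yap+/+ liver on its brighter probe set, and 5.77 in Yap+/- and 6.01 in Yap+/+ liver on the other, which checks the labels only if the probes lie in the disrupted part. Hepatocyte markers were abundant, with 7 of 8 listed genes found and values from 12.1 to 15.1 in Yap+/- and from 12.3 to 15.1 in Yap+/+ liver. Among control transcripts, the excess of 3-prime over 5-prime signal (log2) was larger in the Yap+/- pool for Gapdh by 0.22, for pyruvate carboxylase by 0.21 and for beta-actin by 0.20, and smaller for the transferrin receptor by 0.035. Its part in the small differences below was not tested.

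Respiratory chain and ATP synthase transcripts were at nearly the same level in both pools, with 1 exception. The median difference over the 76 measured subunits and paralogues was 0.017 (log2, Yap+/- minus Yap+/+), a 1.01-fold difference, against 0.00 over all 9299 measured genes. Of these 76 genes, 74 (97.4%) lay within 1.2-fold, against 88.5% of all measured genes and 92.5% of the 1713 measured genes with a mean of at least 10. At 2-fold, 1 subunit gene was lower and 0 were higher in Yap+/-, where 0.226% of all measured genes were at least 2-fold lower and 0.0968% at least 2-fold higher. The 1 gene was Cox6b2, the testis-type form of a complex IV subunit. It passed the minimum only through its Yap+/+ value, as did 9 in all of the 21 measured genes at least 2-fold lower, so nothing is read from this count against the background. Cox6b2 was also the only one past 1.5-fold, a size reached by 0.645% of measured genes on the lower side and 0.699% on the higher side. At 1.2-fold, Ndufa10 of complex I joined it, so that 2 were lower and 0 higher, against backgrounds of 5.45% lower and 6.02% higher. By any amount, 46 of the 76 were higher and 29 lower, against 48.8% and 49.6% of all measured genes. In bulk liver, less RNA per cell and fewer cells of a type cannot be told apart.

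The spread among subunits was narrow as well as centred near 0. The robust SD of the difference was 0.057 over the 76 genes, against 0.15 over all measured genes and 0.11 over those with a mean of at least 10. The spread was thus smaller among brighter genes, and no set as bright as the subunits was compared. The part of brightness in the narrow spread, and in the share within 1.2-fold, was not tested. Most subunits read high on these arrays, with a median of 12.3 in both pools and a range of 5.06 to 14.4 in Yap+/- and 6.31 to 14.4 in Yap+/+ liver. The highest value in the table was 15.2, and close to it real differences may be compressed. This would apply most to Cox6a1 and Uqcrb, the brightest subunits, and was not tested.

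**Figure D1:**
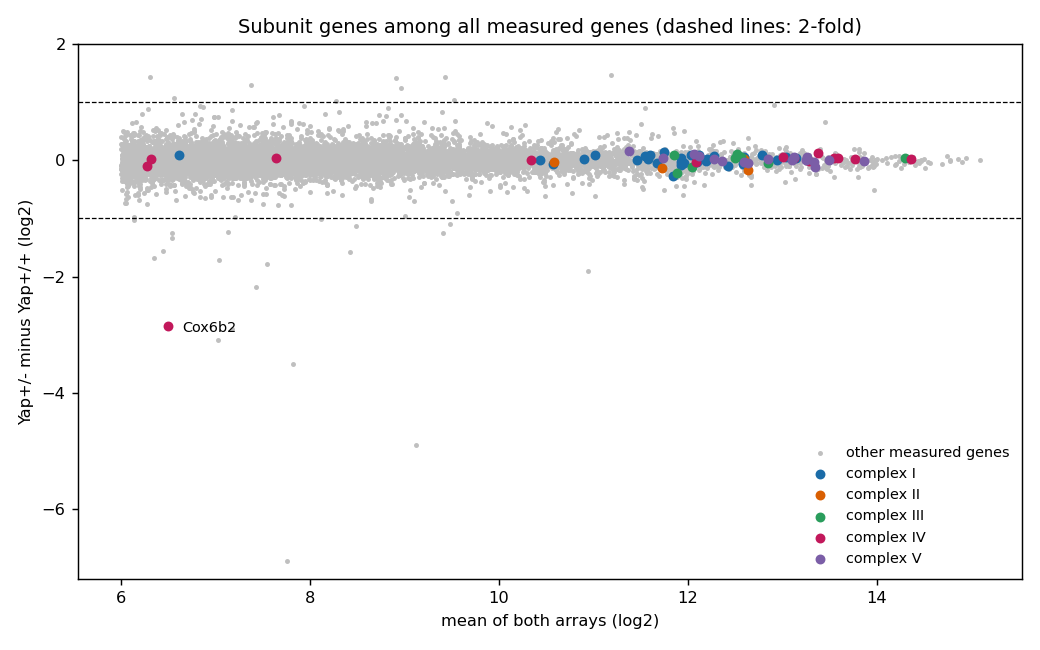
Difference between Yap+/- and Yap+/+ liver (log2, vertical axis) against the mean of both arrays (log2, horizontal axis) for all 9299 measured genes, in grey, with the 76 subunits and paralogues coloured by complex. Dashed lines mark 2-fold, and Cox6b2 at -2.86 is the only coloured point beyond them.

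Promoter windows were compared because nuclear respiratory chain genes are known to share a few factors, among them NRF1, GABP of the ETS family, YY1 and ERR alpha. Windows of 250 bases before to 50 after the start were taken from RefSeq (GRCm38.p6) for the 67 subunits and paralogues that have at least 1 there. The 4 below show the pair that parted, Cox6b2 and Cox6b1, and the only 2 genes with an ERR alpha match, Sdhd and Atp5g3. They run 5′ to 3′ along the gene, and capitals mark matches, on either strand, to NRF1 (GCGCA, any base and GCGC), YY1 (AAGATGGC), ETS (CCGGAAG) or ERR alpha (TCAAGGTCA).
Cox6b2, chr7:4753045-4753344, minus strand: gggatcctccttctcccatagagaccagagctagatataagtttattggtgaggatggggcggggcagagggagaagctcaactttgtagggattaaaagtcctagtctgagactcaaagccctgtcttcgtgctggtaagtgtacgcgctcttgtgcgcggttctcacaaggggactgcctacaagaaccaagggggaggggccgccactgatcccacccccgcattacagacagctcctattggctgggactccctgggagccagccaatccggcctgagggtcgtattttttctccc
Cox6b1, chr7:30626065-30626364, minus strand: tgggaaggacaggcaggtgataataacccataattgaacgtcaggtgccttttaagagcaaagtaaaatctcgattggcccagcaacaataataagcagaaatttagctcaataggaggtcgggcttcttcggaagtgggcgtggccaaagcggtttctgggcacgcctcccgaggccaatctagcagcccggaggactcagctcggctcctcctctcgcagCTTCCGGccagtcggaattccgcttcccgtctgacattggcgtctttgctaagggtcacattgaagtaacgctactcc
Sdhd, chr9:50603800-50604099, minus strand: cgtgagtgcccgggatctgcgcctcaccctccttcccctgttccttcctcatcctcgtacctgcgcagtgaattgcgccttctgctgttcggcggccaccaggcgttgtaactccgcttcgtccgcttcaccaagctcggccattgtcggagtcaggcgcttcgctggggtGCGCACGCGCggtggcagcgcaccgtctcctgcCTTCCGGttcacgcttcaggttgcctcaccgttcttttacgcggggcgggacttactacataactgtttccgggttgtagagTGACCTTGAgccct
Atp5g3, chr2:73911277-73911576, minus strand: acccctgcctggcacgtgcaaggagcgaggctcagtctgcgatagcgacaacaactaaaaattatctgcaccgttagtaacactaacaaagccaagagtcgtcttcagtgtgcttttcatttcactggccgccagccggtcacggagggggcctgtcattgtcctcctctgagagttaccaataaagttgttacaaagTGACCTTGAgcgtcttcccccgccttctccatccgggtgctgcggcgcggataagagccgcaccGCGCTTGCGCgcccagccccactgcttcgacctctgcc
The window of Cox6b2 held 0 matches, that of Cox6b1 held 1, to ETS, that of Atp5g3 held 2 and that of Sdhd held 3 of different kinds. An absent match says only that these letters are not in the window.

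Shares are of genes, and where a gene had several windows a match in any of them counted. The number of windows per gene was not compared between the sets. NRF1 was matched in 15 of 67 genes (22.4%), against 12.2% of 7611 measured genes and 5.19% of 27025 genes with a window. YY1 was matched in 9 (13.4%), against 5.81% of measured genes and 3.19% of all. ETS was matched in 17 (25.4%), against 21.0% of measured genes and 9.93% of all. These 3 shares lay above those of both backgrounds, by most for NRF1 and YY1 in percentage points over measured genes. ERR alpha was matched in 2 (2.99%), against 0.368% of measured genes and 0.466% of all. CREB (TGACGTCA) was matched in 4.48% and the TATA box (TATAAA) in 11.9%, against 3.63% and 9.05% of measured genes and 2.03% and 15.7% of all. The YY1, ETS, ERR alpha, CREB and TATA letters do not contain one another or the NRF1 letters, which read almost the same on both strands, and median GC content was 58.5% in the subunit windows and 61% in those of measured genes. The median difference between genotypes was then compared with and without a match. The 14 measured subunits with an NRF1 match had a median of 0.014 and the 49 without one 0.019, and the medians were 0.050 with and 0.015 without YY1 (9 and 54 genes) and 0.013 with and 0.017 without ETS (17 and 46 genes). For the rarer motifs the medians were -0.12 with and 0.018 without CREB (3 and 60 genes), -0.068 with and 0.018 without ERR alpha (2 and 61 genes) and 0.042 with and 0.016 without TATA (6 and 57 genes). The CREB and ERR alpha gaps were the widest and rest on 3 and 2 genes.

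**Figure D2:**
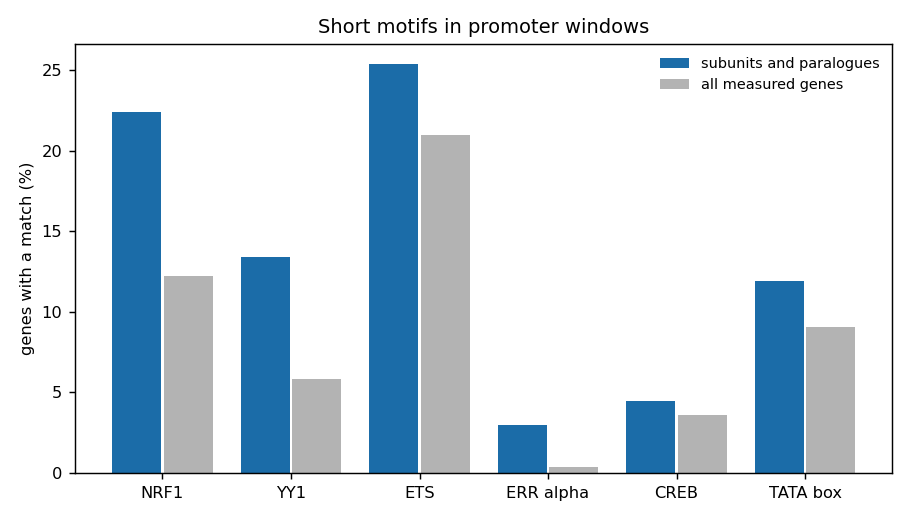
Share of genes (percent, vertical axis) with a match to each motif in any of their promoter windows, for 67 subunits and paralogues (blue) and for 7611 measured genes (grey). For each motif drawn the blue bar is the higher, from 22.4% against 12.2% for NRF1 to 4.48% against 3.63% for CREB, and no test was made.

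Complex I is the entry point for NADH and the largest of the 5 complexes. It had 33 measured subunits, of which 20 were higher and 13 lower in Yap+/-, with a median difference of 0.017 that became -0.0028 when probe sets with the suffixes _s, _x and _a, which can bind several transcripts, were left out. The catalytic core subunits, most of which bind flavin or iron-sulphur clusters, lay mostly on the lower side. Ndufv1, which holds the NADH and flavin site, read 12.38 in Yap+/- and 12.47 in Yap+/+ liver, a difference of -0.093. Ndufs1, the largest cluster-bearing subunit, read 10.54 in Yap+/- and 10.61 in Yap+/+ liver. Ndufs8, which carries clusters close to the quinone site, read 12.55 in Yap+/- and 12.61 in Yap+/+ liver. These 3 genes differed in the same direction by 1.04-fold to 1.07-fold. Ndufv2 was lower by 0.055 on its brightest probe set but higher by 0.060 on the next, and Ndufs3 was lower by 0.035. Ndufs7 was the exception, at 11.82 in Yap+/- and 11.67 in Yap+/+ liver, 1.11-fold higher, while its other probe set was lower by 0.075. In all, 5 of 6 core subunits were lower, with a median of -0.057.

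Accessory subunits of complex I surround the core and stabilise it, and they lay mostly on the other side. Of 27 measured, 19 were higher and 8 lower in Yap+/-, with a median of 0.034. The largest positive differences were those of Ndufa6 (0.098), Ndufb6 (0.095), Ndufc2 (0.094) and Ndufb1 (0.091), of which Ndufc2 was lower by 0.15 on another bright probe set. Ndufa10 was the furthest below, at 11.71 in Yap+/- and 11.98 in Yap+/+ liver, 1.2-fold lower, but its second probe set, close to the minimum for a measured gene, was higher by 0.21. Next came Ndufa9, a subunit near the quinone site, which was lower by 0.084, and Ndufb2, lower by 0.054. Over every measured probe set of these genes, 13 of 16 for core subunits and 19 of 52 for accessory subunits were lower. Most of the 13 belong to 2 genes, Ndufs8 with 6 and Ndufv1 with 3. Both medians kept their sign under other choices of probe set and scaling, from -0.075 to -0.035 for core and from 0.011 to 0.043 for accessory subunits. The contrast was chosen after seeing these values, and the alternatives reuse the same 2 arrays, so they add no independent evidence for it. No test of this contrast was possible, since genes are not replicates and probe sets of a gene share its transcript.

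**Figure D3:**
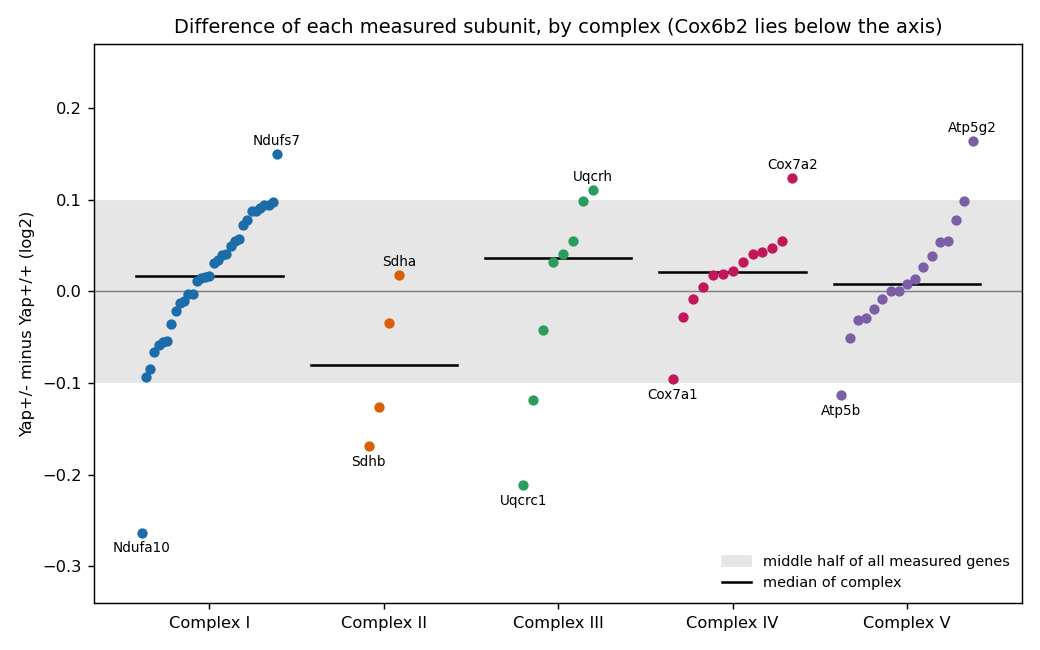
Difference between Yap+/- and Yap+/+ liver (log2, vertical axis) for each measured subunit or paralogue, ordered by value within complexes I to V. Each point is 1 gene on 1 pair of arrays, black lines are medians, the grey band holds the middle 50% of all measured genes (-0.099 to 0.098), and Cox6b2 (-2.86, complex IV) lies below the axis.

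Complex II is the only one of the 5 that belongs to the citrate cycle as well, and it has only nuclear-encoded subunits. Its median difference, -0.080 over 4 genes, was the lowest of the 5 complexes as measured. Sdhb, the iron-sulphur subunit, read 12.55 in Yap+/- and 12.72 in Yap+/+ liver, 1.12-fold lower. Sdhd, a membrane anchor, read 11.66 in Yap+/- and 11.79 in Yap+/+ liver on its brighter probe set. Its second probe set ran the other way, at 10.32 in Yap+/- and 10.11 in Yap+/+ liver, a gap of 0.33 between probe sets, so the direction for Sdhd is unsettled. Sdhc, the other anchor, differed by -0.034 and the flavoprotein Sdha by 0.018. With all probe sets of a gene averaged, the median was -0.031.

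The 8 measured subunits of complex III found by the name rule, which leaves out cytochrome c1, had a median of 0.036. This median became -0.0063 when all probe sets of a gene were averaged. The small subunits Uqcrh, which interacts with cytochrome c1, and Uqcr10 were higher, by 0.11 and 0.099. Uqcrc2 was higher by 0.055 on its brightest probe set and lower by 0.16 on another. Lower values were found for Uqcrc1, one of the large matrix-facing subunits, at 11.78 in Yap+/- and 11.99 in Yap+/+ liver, 1.16-fold lower. Uqcrfs1, the Rieske iron-sulphur protein that takes electrons from ubiquinol, read 11.98 in Yap+/- and 12.10 in Yap+/+ liver, 1.09-fold lower. Each of these was read by 1 probe set. Uqcrq was lower by 0.042, and Uqcrb and Uqcr11 were higher by 0.032 and 0.040.

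Complex V had a median of 0.0084 over 17 measured genes, the nearest to 0 of the 5 complexes, and its sign changed when the same kinds of probe set were left out (-0.0029) or the arrays were quantile normalised again (-0.0059). In the catalytic F1 part, Atp5b, the subunit that makes ATP, read 13.29 in Yap+/- and 13.40 in Yap+/+ liver, 1.08-fold lower on its only probe set. Atp5a1, the other large F1 subunit, read 13.10 in both pools, although a second bright probe set was lower by 0.19. The rotor stalk genes Atp5c1, Atp5d and Atp5e differed by -0.030, 0.0084 and 0.013. Atp5c1 had a second, dim probe set at 6.23 in Yap+/- and 5.79 in Yap+/+ liver. Of the 12 genes of the membrane part and the peripheral stalk, 8 were higher and 4 lower. Atp5g2 was furthest above, at 11.46 in Yap+/- and 11.30 in Yap+/+ liver, followed by Atp5md (0.099), Atp5o (0.078) and Atp5j2 (0.055). Atp5g1 (-0.051), Atp5k (-0.031) and Atp5l (-0.019) were furthest below.

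Complex IV held the single large difference. Its 14 measured genes had a median of 0.021, with 10 higher and 4 lower. The 9 measured general or liver-type subunits stayed between -0.028 and 0.12, with Cox7a2, the liver-type form of its subunit, the highest at 13.44 in Yap+/- and 13.32 in Yap+/+ liver. Cox6c, a small subunit without a tissue form among the genes listed, was higher by 0.055. Cox5a and Cox5b, which face the matrix, differed by 0.032 and 0.019. Cox7c was just under the minimum at 5.99 in Yap+/- and 5.92 in Yap+/+ liver, and the gene just inside it was Cox7a1.

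Cox6b2 replaces Cox6b1 in sperm mitochondria, where Cox6b subunits face the intermembrane space near the cytochrome c docking site. It read 5.06 in Yap+/- and 7.92 in Yap+/+ liver on its only probe set, 7.25-fold lower. The Yap+/- value was close to 4.92, the median over the table, a level that may be background, and the fold is therefore inexact. Cox6b1, the somatic form, did not share it, at 13.57 in Yap+/- and 13.53 in Yap+/+ liver on its brighter probe set and 12.58 in Yap+/- and 12.55 in Yap+/+ liver on the other. With 64 added on the linear scale before the logarithm, the difference of Cox6b2 was -1.65.

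The genes next to Cox6b2 and other genes of male germ cells were read beside it, but most lay under the minimum in both pools, where a lower value could not show. In RefSeq order, the protein-coding neighbour Kmt5c, a histone methyltransferase, read 7.16 in Yap+/- and 7.27 in Yap+/+ liver. Of the 8 nearest protein-coding neighbours, 7 had values here and 3 were measured, Hspbp1, Kmt5c and Tmem238, which differed by -0.12 to 0.0032. Brsk1, Tmem150b, Il11 and Tmem190 lay under the minimum, and Fam71e2 was not analysed here. All 8 testis germ cell markers were found, 4 higher and 4 lower in Yap+/-, with a summed level (log2 of the sum of linear values) of 8.44 in Yap+/- and 8.42 in Yap+/+ liver. Most of that sum came from the protamine gene Prm1, the only one over the minimum, at 7.87 in Yap+/- and 7.81 in Yap+/+ liver on a probe set of the kind that can bind several transcripts. Of its other 2 probe sets, one gave 2.98 in Yap+/- and 2.82 in Yap+/+ liver and the other 2.67 in Yap+/- and 2.70 in Yap+/+ liver, at the bottom of the range. No germ cell marker was therefore clearly measured. The other 7 markers, all under the minimum, had a summed level of 6.83 in Yap+/- and 6.89 in Yap+/+ liver. Cox8c and Cox7b2, the other testis-type complex IV genes, are given below.

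Some markers of other cell types were lower in Yap+/-, as Cox6b2 was. The duct keratin Krt19 read 4.83 in Yap+/- and 6.73 in Yap+/+ liver, and the summed level of the 4 cholangiocyte markers found of 5 listed was 7.22 in Yap+/- and 7.80 in Yap+/+ liver, with 0 of them measured. That gap came from Krt19, since the other 3 summed to 6.91 in Yap+/- and 6.87 in Yap+/+ liver. Krt7 and Epcam differed by -0.15 and -0.11, and Sox9 was higher in Yap+/- by 0.26. The 5 smooth muscle markers were lower without exception, with a summed level of 8.95 in Yap+/- and 9.89 in Yap+/+ liver. Only 3 of them were measured, and Myh11 among these only through its Yap+/+ value (5.89 in Yap+/- and 6.46 in Yap+/+ liver). The part of either cell type in the value of Cox6b2 was not tested. The 5 Kupffer cell markers were higher without exception, with a summed level of 12.4 in Yap+/- and 12.0 in Yap+/+ liver, the opposite direction. Of 5 sinusoidal endothelium markers 4 were higher and 1 lower, and of 5 stellate cell markers 2 were higher and 3 lower.

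The remaining tissue isoforms and paralogues gave no difference of 1.5-fold. Among muscle-type genes, Cox6a2 read 6.32 in Yap+/- and 6.31 in Yap+/+ liver, and Cox7a1 read 6.23 in Yap+/- and 6.32 in Yap+/+ liver. Cox8b, also muscle-type and found in brown fat, read 4.80 in Yap+/- and 4.27 in Yap+/+ liver. Both Cox8b values lay under the median of all probe sets, so its 1.45-fold difference is uncertain. None of the 10 skeletal and heart muscle markers was measured, and their values ran from 3.25 to 5.56 in Yap+/- and from 3.06 to 5.42 in Yap+/+ liver. Their liver-type partners Cox6a1 and Cox8a differed by 0.022 and -0.028.

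Other alternative forms were likewise close between the pools or near the bottom of the range. Cox4i2, the form of lung and hypoxic cells, read 4.80 in Yap+/- and 4.76 in Yap+/+ liver, while the general form Cox4i1 read 13.28 in Yap+/- and 13.29 in Yap+/+ liver. Ndufa4, now counted with complex IV, differed by 0.040. Its hypoxia-inducible paralogue Ndufa4l2 read 5.12 in Yap+/- and 5.41 in Yap+/+ liver, 1.22-fold lower but under the minimum. Cox7b2, a testis-type gene, read 3.04 in Yap+/- and 3.12 in Yap+/+ liver, near the lowest value of the table, 2.49, and its general partner was not analysed here. Cox8c, testis-type as well, read 7.67 in Yap+/- and 7.62 in Yap+/+ liver, and its second, dim probe set was lower by 0.15. Cox7a2l, a relative of Cox7a, read 10.34 in both pools. Of the 3 Atp5g genes, which encode the same mature c-ring protein behind different import sequences, Atp5g1 differed by -0.051, Atp5g2 by 0.16 and Atp5g3 by -0.0088.

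**Figure D4:**
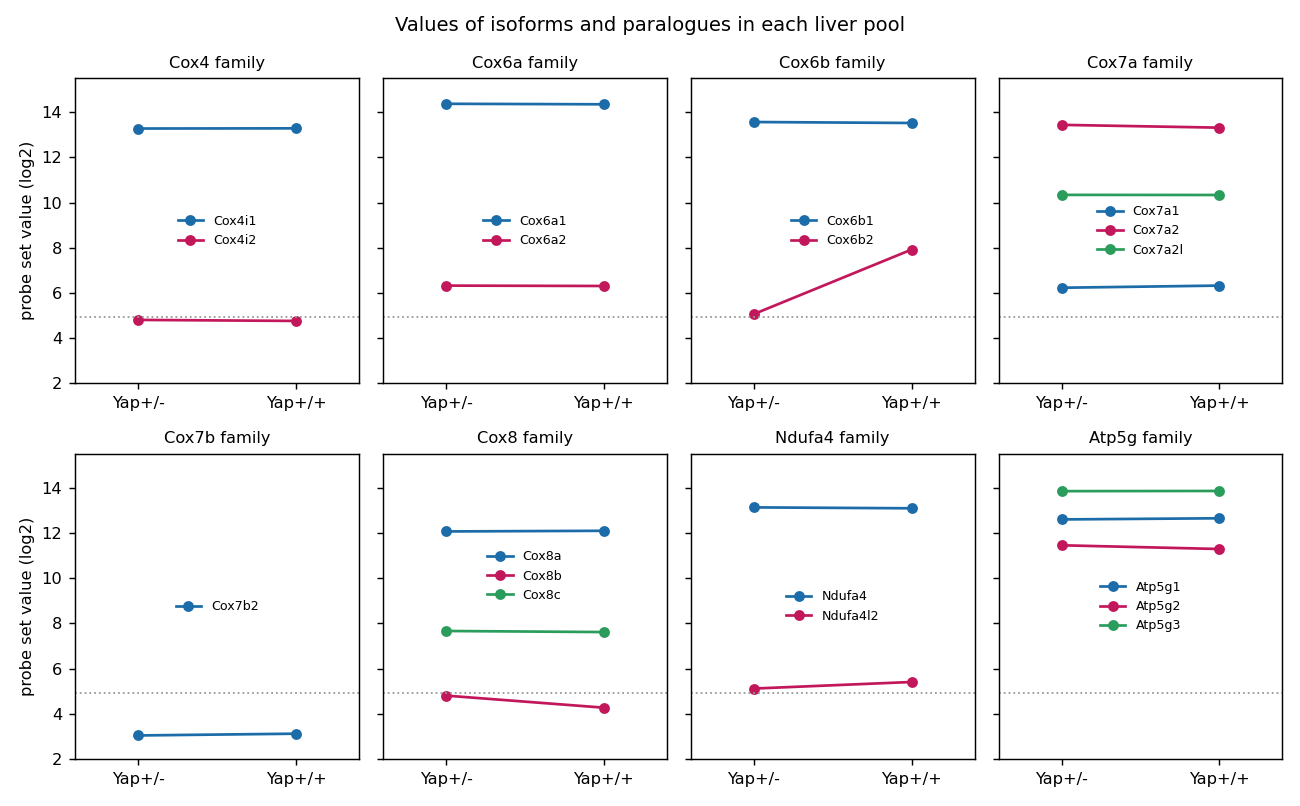
Probe set values (log2, vertical axis) in the Yap+/- pool (left point) and the Yap+/+ pool (right point) for 18 isoforms and paralogues, 1 panel per family. The dotted line is the median of all probe sets, levels are not comparable between genes, and Cox6b2 (5.06 in Yap+/- and 7.92 in Yap+/+ liver) is the only line with a marked slope.

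How far these small differences depend on the probe set can be judged from genes read by several. Such probe sets read the same pools on the same arrays, so they do not show the spread between pools or mice. Of the 90 genes, 51 had more than 1 probe set, and 45 had at least 2 measured ones. The differences on the 2 brightest probe sets disagreed with a robust SD of 0.064 over these 45 genes, against 0.17 over 3406 genes of the whole table, and 34 of 45 pairs lay within 0.1 of each other. Their signs matched in 27 of 45 genes (60.0%), and in 60.1% of all genes. Among genes with both probe sets at a mean of at least 10, the robust SD was 0.063 over 36 members and 0.11 over 428 genes of the whole table, and signs matched in 61.1% of those members and in 69.2% of all such genes. Most subunit differences, 65 of 76, were smaller than 0.1, which is close to this disagreement, so the direction of a single subunit is not firm. The largest gaps were those of Ndufa10 (-0.47) and Atp5c1 (-0.46), each with a dim second probe set. Ndufv1 and Ndufs8 had all 3 and all 6 of their probe sets on the lower side, which is agreement between probes and not between pools.

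**Figure D5:**
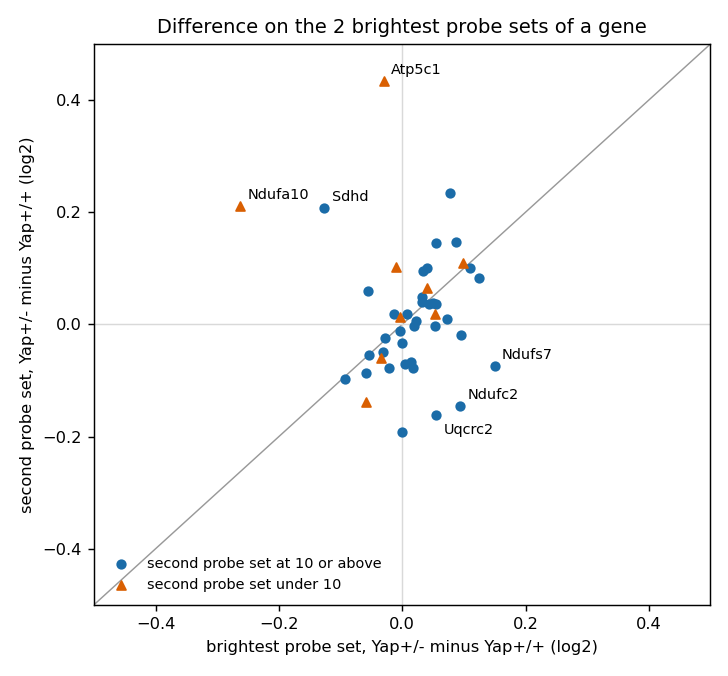
Difference between Yap+/- and Yap+/+ liver (log2) on the second brightest measured probe set (vertical axis) against that on the brightest (horizontal axis) for 45 genes with at least 2 measured probe sets. Points on the diagonal agree exactly, orange triangles mark second probe sets under a mean of 10, and genes with a gap over 0.2 are named.

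Assembly factors put the complexes together and are not part of them. The 8 Ndufaf genes had 4 higher and 4 lower values and a median of -0.0070, from Ndufaf5 at -0.15 to Ndufaf6 at 0.10. A wider list of 45 measured assembly factors had a median of 0.00, with 22 higher and 22 lower. Cox18, an insertase for a mitochondrially encoded complex IV subunit, was the only one past 1.2-fold, at 7.98 in Yap+/- and 8.50 in Yap+/+ liver, 1.44-fold lower on 1 probe set. Next on the lower side were Timmdc1 and Ecsit, both complex I factors, each lower by 0.22, and on the higher side the complex IV factors Pet100 (0.23) and Cox20 (0.21) and the complex II factor Sdhaf4 (0.13).

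Genes that work beside the chain were also within 2-fold. The 21 measured electron carriers and transporters had 7 higher and 13 lower and a median of -0.017. They include Cyc1 (-0.053), cytochrome c1, which is a subunit of complex III but was not found by the name rule. Cycs, cytochrome c, read 13.12 in Yap+/- and 12.93 in Yap+/+ liver on its brightest probe set, 1.14-fold higher. Its other bright probe sets were higher by only 0.047 and 0.081, and a dim one was lower by 0.33. Nnt, the proton-driven transhydrogenase, was higher by 0.20 on its brightest probe set and by 0.088 on the next. The outer membrane channel Vdac2 was 1.2-fold lower, and Slc25a5, an ATP/ADP carrier, was lower by 0.15, whereas Slc25a4, another carrier, was higher by 0.12. The citrate cycle and pyruvate dehydrogenase genes, which feed the chain, lay more to one side, with 14 of 16 lower in Yap+/- and a median of -0.089, beside 49.6% lower over all measured genes. Idh3a, the catalytic subunit of the NAD-linked isocitrate dehydrogenase, read 9.11 in Yap+/- and 9.50 in Yap+/+ liver, 1.31-fold lower, and its other 3 probe sets were lower too. Pdhx and Pdhb of pyruvate dehydrogenase were lower by 0.20 and 0.19, and Mdh2 (0.035) and Ogdh (0.014) were the 2 on the higher side. Mitochondrial ribosomal protein genes, 76 in number, had a median of 0.016 with 41 higher and 35 lower, and 72 lay within 1.2-fold.

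Regulators of mitochondrial gene expression were spread more widely than the subunits, in both directions, and 16 of 19 (84.2%) lay within 1.2-fold, near the 88.5% of all measured genes. Ppargc1a, the co-activator PGC-1alpha that raises respiratory chain transcription in fasting and cold, read 8.56 in Yap+/- and 8.06 in Yap+/+ liver, 1.42-fold higher. Its other 4 probe sets were higher as well, by 0.27 to 0.80. The related Ppargc1b was 1.21-fold higher, and the mitochondrial elongation factor Tefm was higher by 0.23. On the lower side, the mitochondrial transcription factor Tfb2m was 1.25-fold lower at 8.40 in Yap+/- and 8.73 in Yap+/+ liver. Mterf2, of the termination factor family, was lower by 0.24, and Tfb1m, an rRNA methyltransferase, was lower by 0.24 and on its second probe set by 0.31. Over the 19 measured regulators 10 were higher and 9 lower, the median was 0.013 and the robust SD was 0.24, against 0.057 for the subunits and 0.15 for all measured genes. The nuclear factors Gabpa (0.013) and Esrra (-0.040), for whose motifs the promoters were searched, differed little, and Yy1 was higher by 0.20. Nrf1, whose motif was searched for as well, differed by -0.050. It read 6.00 in Yap+/- and 6.05 in Yap+/+ liver, at the minimum, where a difference could hardly show.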

How the data were processed

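RNA from 1 pool of 5 livers per genotype was measured on Affymetrix 3-prime expression arrays, labelled with biotin by in vitro transcription, per the labels' protocols. The authors deposited 1 log2 value per probe set and array, and per the submitters' processing notes the authors used RMA and Partek 6.5. Sorted, the columns differed by at most 0.047, so an overall difference in RNA amount would be removed. Scanner files and detection calls were not used here.

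Gene names came from the platform's annotation. All 90 members matched a RefSeq gene by identifier, and 0 symbols changed. The comparison was Yap+/- minus Yap+/+ on the log2 scale, counted at 2-fold, 1.5-fold and 1.2-fold. With 1 array per genotype there is no test and no p-value, and the number of arrays limits the precision. The members and lists were chosen with earlier results of these data known. Named genes are Yap1, complex II, all isoforms, all members past 1.5-fold, up to 4 per direction in a complex and 3 in another list. Further genes and probe sets, the neighbours of Cox6b2 and the motifs were chosen after values were seen. The counting was tested on simulated data. Alternatives concerned the minimum, the choice of probe sets, scaling, 64 added on the linear scale and the fold. Computations used pandas 2.3.3 and numpy 2.4.6 in Python 3.11.15, with lowess from statsmodels 0.14.6 and figures from matplotlib 3.10.9.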

Additional observations from a re-analysis of the deposited data

How the results depend on the processing

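No paired analysis was possible because each genotype has 1 array. Of 188 values recomputed under other settings, 183 moved by less than an allowance or, for counts, by no more than 1.5 times. The allowance was the disagreement between probe sets of a gene (robust SD 0.17), divided by the square root of the number of genes in a median. Part of this was fixed in advance. Median centring changed none of the values, because the median difference over all measured genes was already 0.00. It did not equalise the medians of all probe sets, 4.917 in Yap+/- and 4.931 in Yap+/+ liver. That gap is not small beside the medians of the subunits. A gene with 1 probe set cannot move when probe sets are averaged. For a single gene the allowance was also wider than the disagreement among members (0.064). Signs could change within it, as for Cox8a from -0.028 to 0.055 with probe sets averaged. The count of subunits at least 2-fold lower was 0 with a minimum mean of 7, which removes Cox6b2, and 2 at a threshold of 1.2-fold. With 64 added on the linear scale, which shrinks differences of dim genes, the difference of Cox6b2 was -1.65, that of Cox8b 0.14 and that of Ndufa4l2 -0.11. The median over all subunits ranged from 0.0045 to 0.023 over 10 alternatives, complex II from -0.13 to -0.031 and complex IV from 0.015 to 0.038. Those of complexes I, III and V changed sign under 1, 1 and 2 alternatives. The contrast of core with accessory complex I subunits and its alternatives were chosen after seeing the data. With no replicates and no detection calls, the spread between mice and the background level are unknown.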

Other observations

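Probe sets that name a member together with another gene were left out of the gene comparison. Of 10 such probe sets, those shared by Ndufb4 and its relatives Ndufb4b and Ndufb4c gave 11.92 and 11.93 in the Yap+/- pool, against 11.71 and 11.76 in the Yap+/+ pool, differences of 0.21 and 0.18. The only probe set of Ndufb4 alone, at 3.52 in Yap+/- and 3.26 in Yap+/+ liver, lay under the minimum, so this accessory subunit of complex I is read by the shared ones. The probe set shared by Ndufs6 and Ndufs6b was higher by 0.12, the brighter one shared by Ndufa11 and Ndufa11b was lower by 0.027, and the one shared by Ndufs5 and its pseudogene was higher by 0.14.

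Of 89 probe sets of members that did not represent their gene, 0 were at least 2-fold higher and 1 was at least 2-fold lower in Yap+/-. It belongs to Ndufa12 and read 3.74 in Yap+/- and 4.77 in Yap+/+ liver, both under the median of all probe sets, while the 3 bright probe sets of Ndufa12 differed by -0.013 to 0.074.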
